A study of Drosophila melanogaster with 3 samples.

Results

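The dorsal BMP patterning genes were examined in laser-wounded and unwounded syncytial Drosophila embryos. The members are the ligand genes dpp and scw, the genes of the BMP-binding proteins sog and tsg, the protease genes tld and tok, the T-box genes Doc1, Doc2 and Doc3, and Dtg. They were found by gene identifier, symbol or synonym in the annotation of the array. Of the 10 genes, 8 had a spotted cDNA clone named for them alone, with 9 clones in all, and 7 had a ratio on all 3 arrays, among 10183 genes and clones tested. No clone is named for sog or tsg in the annotation used, and these genes were not analysed here. The only dpp clone lacked a value in experiment 4. Embryos aged 0 to 1 h that carried the actin reporter sGMCA were dechorionated by hand and put in halocarbon oil. They were either ablated with a laser or left unwounded, and RNA of both groups was taken 30 min later. Each of the 3 arrays compared wounded with unwounded embryos of 1 experiment (numbered 3, 4 and 5 in the labels), and the design text describes the experiments as independent. The study's methods name more replicates than the arrays analysed here. Both groups carried the reporter and were handled alike apart from the wound, and how many embryos were pooled per sample is not given in the sources used here.

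BMPs are secreted ligands of the TGF-beta superfamily. In the fly blastoderm dpp is transcribed over the dorsal side and scw throughout the embryo, and the ligand dimers are carried to the dorsal midline by a complex with Sog and Tsg. The protease Tld cuts Sog and so frees the ligand there. The Smad protein Mad is then phosphorylated through signalling by the receptors Tkv, Sax and Put. Phosphorylated Mad enters the nucleus with Med and activates genes of the amnioserosa and dorsal ectoderm, among them the Doc genes. These patterning genes are mostly transcribed from the zygotic genome around the blastoderm stage, while receptors and Smads are also supplied by the mother.

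A value is the log2 ratio of wounded over unwounded embryos on an array, so that 1 is a doubling, and errors are the SD over 3 arrays. The deposited table does not state the direction. It was read as wounded over unwounded, because of the genes given as most raised by the study, Dtg left aside, 11 of 11 tested were above 0, and of those given as most lowered 13 of 13 were below 0. This direction is likely, it rests on lists drawn from these samples, and under the opposite reading each rise below is a fall. Wounded RNA was labelled with Cy3 and unwounded RNA with Cy5 on all 3 arrays, so dye and wounding cannot be told apart. Spot brightness was not used here, so its bearing on precision was not tested, and the number of arrays is small. A whole-embryo ratio also cannot tell more transcribing nuclei from more RNA per nucleus.

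The 7 measured members all lay on the same side of 0. Each was above 0 on each of the 3 arrays, as were 25.3% of all features, and the means ran from 0.34 for tok to 1.23 for Dtg. A gene was called when its limma adjusted p was under 0.05 and its mean change at least 1.5-fold. By this rule tld, Doc1 and scw rose, 3 of 7 members, against 0.648% of all features. None of the members was called lower, against 1.68% of all features. Likewise 0 of them had a negative mean at an unadjusted p under 0.05, against 1515 of all 10183 features. Both counts of 0 follow from all 7 members lying above 0 and are no further result. The remaining members, Doc2, Doc3, Dtg and tok, did not pass, though each of the 7 had an unadjusted p under 0.05 on the upper side, as did 10.1% of all features. The median of the 7 means was 0.65, against 0.0014 over all features. Since the members were chosen with earlier results of these data known, these counts describe the genes and do not test them as a group.

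**Figure D1:**
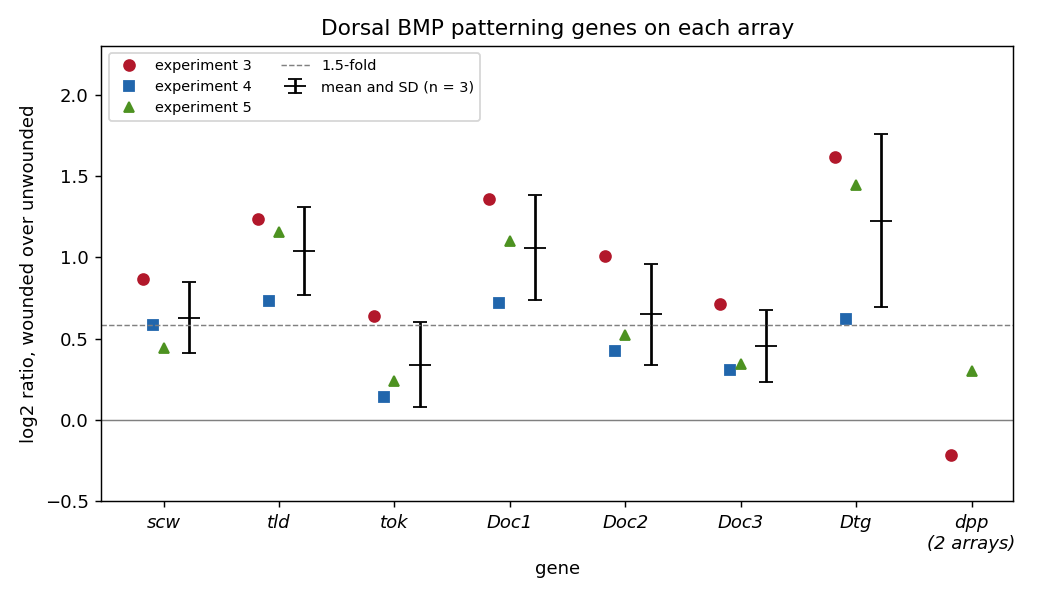
Log2 ratio of wounded over unwounded embryos (vertical axis) for each member on each array (coloured symbols), with mean and SD over 3 arrays in black; the dashed line marks 1.5-fold. All 21 points of the 7 tested genes lie above 0, experiment 3 is highest for each of them, and dpp has 1 point on each side of 0.

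Among the ligand genes, scw rose and dpp could not be tested. For scw, which encodes a BMP that signals together with Dpp in the early embryo, the log2 ratios were 0.87, 0.58 and 0.44 in experiments 3, 4 and 5. The values of scw did not reach 0 on any array, and the mean was 0.63 ± 0.22, or 1.55-fold (95% interval 1.29 to 1.86; limma adjusted p = 0.0485). The call is close to both limits of the rule, and it was lost with each clone on its own (adjusted p = 0.0554) and with features on at least 2 arrays (adjusted p = 0.0547), against 0.0382 to 0.18 over all its alternatives. The dpp clone had -0.22 in experiment 3 and 0.30 in experiment 5, on opposite sides of 0. Fitted with features on at least 2 arrays, the mean of dpp was 0.04 ± 0.36 (n = 2, limma adjusted p = 0.892), which leaves room for a change in either direction. The ligand gene gbb, which acts with Dpp mainly at later stages, had 0.77, 0.29 and 0.23, a pattern with the same high array as scw, and did not pass (0.43 ± 0.29, adjusted p = 0.132).

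Of the 2 protease genes, which are direct neighbours on chromosome arm 3R, tld rose and tok did not pass. The tld values were 1.24 in experiment 3, 0.73 in experiment 4 and 1.16 in experiment 5. All were above the 1.5-fold mark, and the mean was 1.04 ± 0.27, or 2.06-fold (95% interval 1.66 to 2.54; limma adjusted p = 0.0365). This was the smallest adjusted p among the members. It was also the smallest among all 10183 features, and other genes, such as sna and dhd, had the same value. The related gene tok, whose protease is known mainly for its role at larval stages and in motor axon guidance, had 0.64, 0.14 and 0.24. Its mean of 0.34 ± 0.26 did not pass (1.26-fold, adjusted p = 0.165). The 2 clones of tok gave 0.73, 0.14 and 0.30 for one and 0.55, 0.15 and 0.17 for the other, so that both were highest in experiment 3 and lowest in experiment 4. The ratio of tld was above that of tok in 3 of 3 experiments, by 0.60, 0.59 and 0.92, with a mean difference of 0.70 ± 0.19. An exact sign permutation test over 3 arrays, two-sided, cannot go below p = 0.25, which is the p of this difference (0.30 after Benjamini-Hochberg adjustment over the 6 pairs compared).

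The 3 Doc genes encode related T-box transcription factors, lie close together on chromosome arm 3L, and are needed for amnioserosa development downstream of BMP signals. Doc1 had 1.36, 0.72 and 1.10 in experiments 3, 4 and 5. All 3 values exceeded 1.5-fold, and Doc1 was called at 1.06 ± 0.32, or 2.08-fold (95% interval 1.64 to 2.65; limma adjusted p = 0.0369). Doc2 had 1.01, 0.42 and 0.52, with a mean of 0.65 ± 0.31, or 1.57-fold (adjusted p = 0.0728). Its mean was larger than that of scw, but its 3 values were further apart, and it did not pass. Doc3 had 0.71, 0.31 and 0.35 (0.45 ± 0.22, 1.37-fold, adjusted p = 0.0878) and did not pass either. The order Doc1, Doc2, Doc3 was the same on each of the 3 arrays. Doc1 exceeded Doc2 by 0.41 ± 0.15 and Doc3 by 0.61 ± 0.17, and Doc2 exceeded Doc3 by 0.20 ± 0.09, each in 3 of 3 experiments (exact sign permutation test, p = 0.25 for each, the smallest the design allows). Another clone is annotated to both Doc1 and CG14500, and it had -0.06, 0.30 and 0.14. It thus did not follow the clone of Doc1 alone, from which it differed by 0.94 ± 0.50, and it was not counted for Doc1. Spotted cDNAs can bind closely similar transcripts, and shared signal between the Doc clones, or between tld and tok, was not tested.

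Dtg, a gene named as a target of Dpp, had the largest mean of the members and the largest spread. Its values were 1.62, 0.62 and 1.44 in experiments 3, 4 and 5. Experiment 4 lay well below the other 2 arrays, and the mean of 1.23 ± 0.53, or 2.34-fold (95% interval 1.61 to 3.41), did not pass at an adjusted p of 0.0527. By size of the mean, Dtg ranked 5 among the 10183 features, Doc1 21 and tld 28, while scw ranked 163 and tok 434. The size of the mean and the test thus ordered the members differently.

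The members shared a pattern across the arrays. Experiment 3 gave the highest value for 7 of 7 members, against 36.0% of all features and 89.4% of the 66 features called higher. Experiment 4 gave the lowest for 6 of 7, against 46.3% and 80.3%, and scw, with its lowest value in experiment 5, was the exception. The median over the 7 genes was 1.01, 0.58 and 0.52 in experiments 3, 4 and 5. In experiment 3 all 7 genes exceeded 1.5-fold, and in experiments 4 and 5 only 3 did. In experiment 4 these were tld, Doc1 and Dtg, which lay between 0.62 and 0.73; scw, at 0.58, fell just short. In experiment 5 the same 3 genes lay between 1.10 and 1.44 and the other 4 between 0.24 and 0.52. The 7 genes are read from the same 3 arrays and share whatever differs between them.

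**Figure D2:**
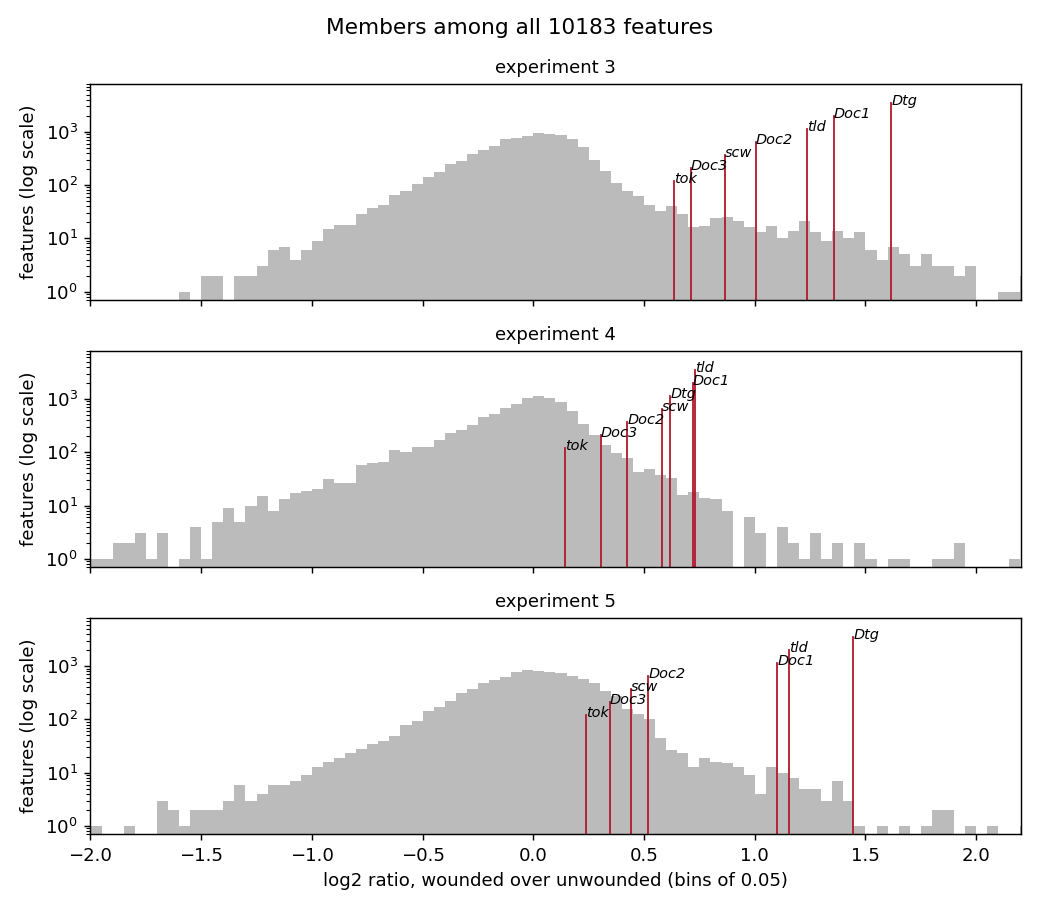
Number of features (log scale) by log2 ratio on each array, in bins of 0.05, with the members marked in red; ratios beyond the axis limits are not drawn. All members lie to the right of the bulk in experiment 3, while tok and Doc3 lie within its right flank in experiments 4 and 5.

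Ranks on single arrays did not follow the same order as the ratios. Doc1 ranked 89, 77 and 54 of 10183 in experiments 3, 4 and 5, and tld 122, 74 and 43. Both thus stood nearer the top in experiment 4 than in experiment 3, although their log2 ratios were smaller there, and nearest in experiment 5. Dtg ranked 41, 125 and 15, and scw 246, 145 and 506. For tok the ranks were 343, 1818 and 1852, and for Doc3 303, 553 and 927, which places both further from the top on the 2 arrays where their ratios were small.

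None of the other measured genes of the BMP pathway was called. Of 20 listed genes 16 were tested, 0 were called in limma in either direction (against 2.33% of all features), and 1 was higher and 2 were lower at an unadjusted p under 0.05. At that limit 10.1% of all features were higher, and 1515 of 10183 were lower. For 16 genes, the count of calls and both counts at the unadjusted limit lie near these shares. They thus do not set the pathway genes apart from all features. The median of the 16 means was 0.06. The receptor genes stayed near 0, with tkv, which encodes the main type I receptor for Dpp, at 0.07 ± 0.06, sax, whose receptor responds to Scw, at 0.04 ± 0.07, the type II receptor gene put at 0.11 ± 0.06 and wit at 0.14 ± 0.07. Among the Smads, Mad had 0.05 ± 0.05 and its partner Med -0.11 ± 0.03, and the inhibitory Smad gene Dad, itself a target of the pathway, had -0.04 ± 0.10. Adjusted p-values of these 7 genes ran from 0.253 to 0.751. Smurf, which encodes a ubiquitin ligase that removes Mad, had -0.39, -0.56 and -0.35, below 0 on all 3 arrays (-0.43 ± 0.11, adjusted p = 0.0523). The collagen IV genes Col4a1 and vkg, whose products bind Dpp, had -0.07 ± 0.36 and 0.17 ± 0.13. The clones of cv, a gene related to tsg, and of cv-d had means of -0.32 ± 0.72 and -0.53 ± 0.41, with wide spreads between arrays. No clone was named for srw, cv-2, dally or brk.

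Genes of the dorsal ectoderm and amnioserosa were mixed. Of 10 listed genes 6 were tested, 1 rose and none was called lower, against 0.648% and 1.68% of all features, with a median of 0.37. The called gene was egr, which encodes a tumour necrosis factor and is transcribed in the amnioserosa, at 0.77, 0.52 and 0.62 (0.64 ± 0.13, limma adjusted p = 0.0367). Ance, an angiotensin-converting enzyme gene of the amnioserosa that depends on high BMP levels, had 1.59, 0.40 and 0.52. Its mean of 0.84 rests largely on experiment 3, and it did not pass (± 0.65, adjusted p = 0.138). The LIM-homeodomain gene tup had 0.49 ± 0.33 and ush, a cofactor of GATA factors, 0.26 ± 0.18 (adjusted p = 0.127 and 0.174). The GATA factor gene pnr went the other way, at -0.33, -0.38 and -0.40, with a mean of -0.37 ± 0.04 that did not pass (adjusted p = 0.0510). For peb, a zinc finger gene of the amnioserosa, 2 of 3 arrays were below 0 (-0.13 ± 0.34). The genes zen, zen2, C15 and rho had no clone named for them alone.

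**Figure D3:**
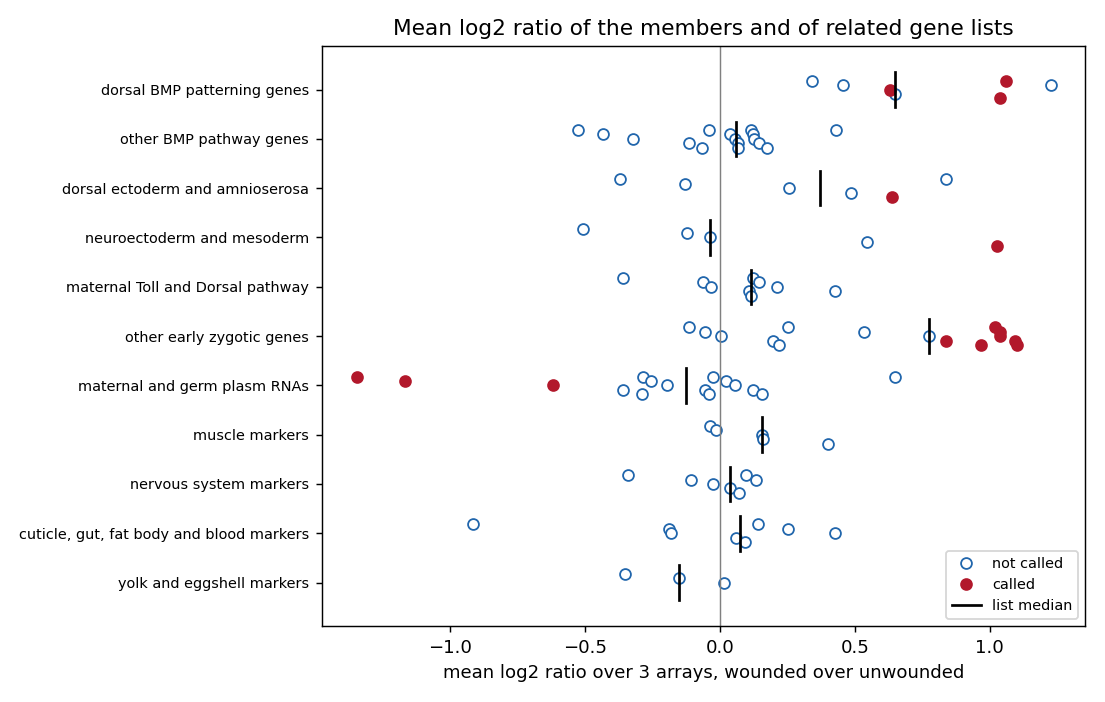
Mean log2 ratio over 3 arrays (horizontal axis) of each tested gene, by list; filled points were called, open points were not, and bars are list medians. The members and the other early zygotic genes have medians of 0.65 and 0.77, while the other BMP pathway genes lie around 0.06. Members and lists were chosen with earlier results of these data known.

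Among dorsoventral genes beyond the BMP pathway, 1 was called. Of 15 listed neuroectoderm and mesoderm genes 5 were tested, of which 1 was called higher, against 0.648% of all features, and 2 were higher and 0 lower at an unadjusted p under 0.05 (limma). Over all features 10.1% were higher and 1515 of 10183 were lower at that limit. The mesoderm repressor gene sna rose (1.03 ± 0.28, adjusted p = 0.0365), and htl, the mesoderm's FGF receptor gene, had 0.88, 0.19 and 0.57 and did not pass (0.54 ± 0.35, adjusted p = 0.112). The mesoderm regulator gene twi had -0.04 ± 0.24 and the neuroectoderm genes ind and SoxN -0.12 ± 0.16 and -0.51 ± 0.59. Of 9 tested genes of the maternal Toll and Dorsal pathway, which sets up the axis, 0 were called (limma), against 2.33% of all features. At an unadjusted p under 0.05, 1 was lower, against 1515 of all 10183 features. The lower gene was dl, the Dorsal factor itself, at -0.36 ± 0.10 (adjusted p = 0.0703).

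Part of the early zygotic genes rose, as the called members did, and part of the maternal RNAs fell. Of 15 tested early zygotic genes outside the BMP group 7 rose (nullo, Sry-alpha, Kr, term, halo, dpn and Tom, at 0.84 to 1.10) and none was called lower, against 0.648% and 1.68% of all features, with a median of 0.77. The other 8 were not called, and gt had the lowest mean, at -0.12 ± 0.14. These 15 had medians of 0.96, 0.45 and 0.94 in experiments 3, 4 and 5, so that experiment 4 was low here too. Experiment 3 was highest for only 6 of the 15 (40.0%, against 36.0% of all features), but for 7 of 7 members. In experiment 5 the median of the members was 0.52. Of 16 tested maternal and germ plasm RNAs 3 fell, namely dhd, exu and vas, against 1.68% of all features, and 13 were not called, with a median of -0.13 for the list. The study gives nullo and dpn among its most raised genes, and dhd and exu among its most lowered. The direction of the ratio was read from those lists, so it is no separate result for these genes. The part of developmental stage in the rise of tld, Doc1 and scw was not tested. Of 33 markers of later tissues, yolk and eggshell, 23 were tested and 0 were called in limma, against 2.33% of all features. Of these markers 4 had an unadjusted p under 0.05, all lower, against 1515 of all 10183 features lower. Their means ran from -0.92 for NimC1 to 0.43 for PPO1, with a median of 0.04.

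The genes with the nearest 3 values to each called member were found by distance. By Euclidean distance over the 3 log2 ratios, sna was nearest to tld, at 0.02, followed by Tom (0.09) and Kr (0.09). Nearest to Doc1 were Tom (0.07), dpn (0.08) and the innexin gene Inx3 (0.09). For scw they were Mdr49 (0.12), ry (0.14) and spo (0.16), of which ry was not called (0.58 ± 0.30, adjusted p = 0.0815). A distance over 3 arrays is a description, and many genes that rose lie close together.

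The genes beside the members on the chromosomes were examined as well. Among the genes up to 5 places to either side of a member, 39 that are no members were tested, of which 0 were called higher and 1 lower in limma, against 0.648% and 1.68% of all features, and their median was -0.04. The gene CG5194, which lies between Doc3 and Doc2, had -0.64, -0.75 and -0.12 while both of its neighbours were above 0 on all arrays (-0.50 ± 0.34, adjusted p = 0.122). On the other side of Doc3, CG5087 had 0.10 ± 0.08. Next to scw, CG10462 had -0.04 ± 0.11, next to Dtg, CG6225 had -0.04 ± 0.13, and next to tok, CG13630 had -0.10 ± 0.11. Of the called members, tld thus had a direct neighbour, tok, with all 3 values above 0. For scw 1 of 2 direct neighbours was tested, and those of Doc1 were not tested. The called fall was that of CG8097 near sog (-0.65 ± 0.17, adjusted p = 0.0400).

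**Figure D4:**
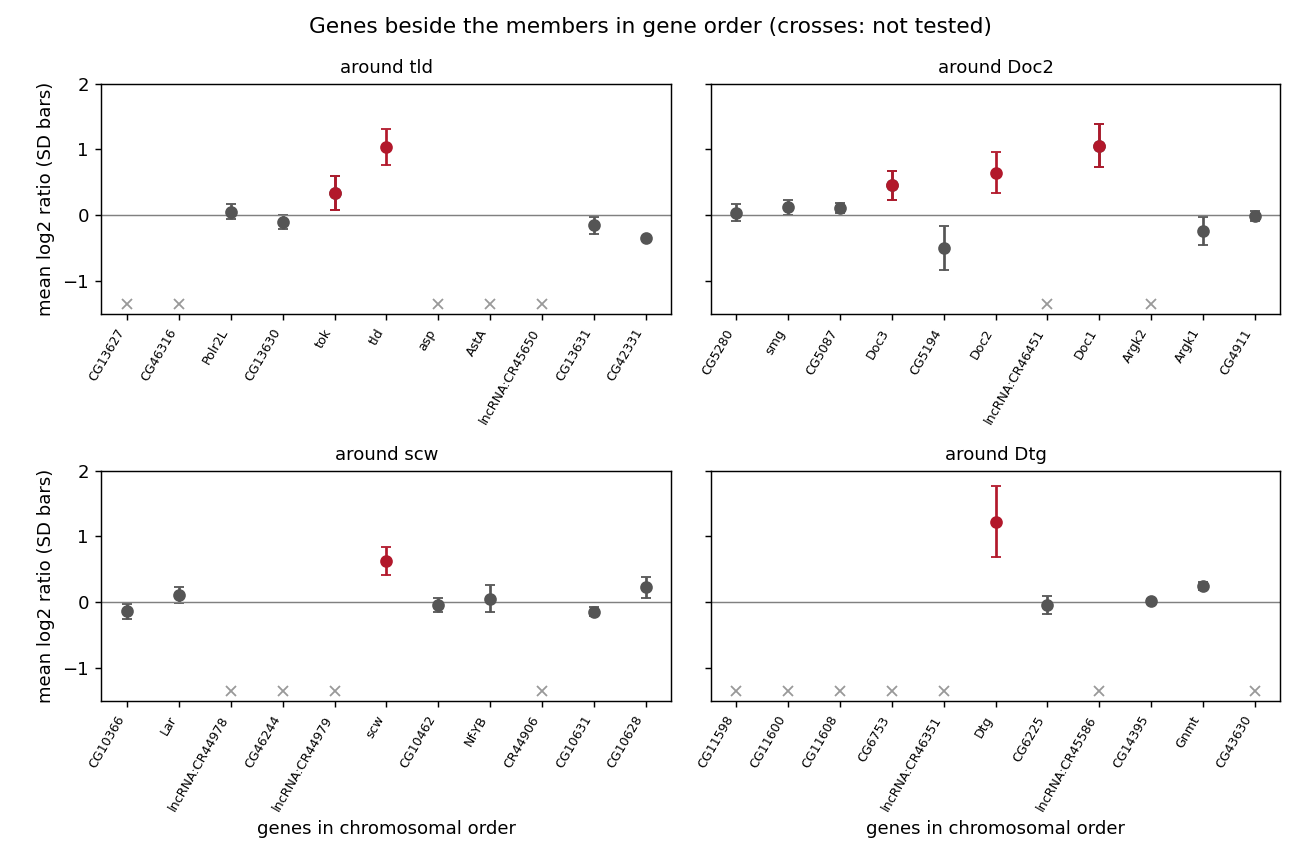
Mean log2 ratio with SD over 3 arrays for the 5 genes on either side of tld, Doc2, scw and Dtg in gene order; members are red, other genes grey, and crosses mark genes not tested. Members stand above their neighbours, and CG5194 between Doc3 and Doc2 lies at -0.50.

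Without experiment 3, 4 or 5 no feature at all was called, so the loss of the 3 member calls there (adjusted p from 0.0594 to 0.182 for tld, Doc1 and scw) says nothing particular about them, and their means stayed between 0.51 and 1.23. With all 3 arrays, scaling them to the same spread or testing against a 1.5-fold change also left 0 calls. At an adjusted p under 0.10, 5 of 7 members were called higher (tld, Doc1, scw, Dtg and Doc2), against 1.13% of all features. With array weights, Dtg passed as well (adjusted p = 0.0371, against 0.0527 to 0.238 under its other settings).

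**Figure D5:**
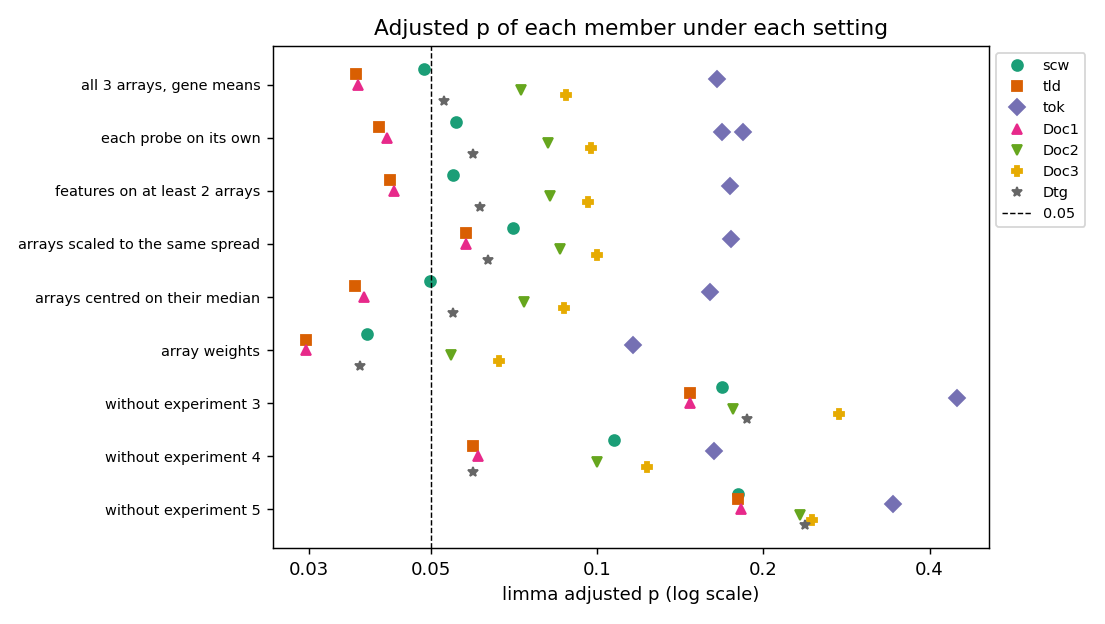
Limma adjusted p (log scale) of each member under each setting, with the threshold of 0.05 dashed. Among the settings drawn, tld and Doc1 pass with all 3 arrays except where arrays are scaled to the same spread, and no gene passes when an array is left out; the test against a 1.5-fold change is not drawn.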

How the data were processed

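The authors deposited 1 log2 ratio per clone and array, derived from scans of 2-colour cDNA arrays. According to the study's methods, weak spots and those the image software had marked were dropped, and the log2 ratios were loess normalized within each array in limma. Loess sets the bulk of ratios near 0, so a shift shared by most transcripts is not seen. The table held 12144 clones, with medians of 0.0010, -0.0132 and 0.0084 over gene spots, and 160 control spots were left out. Clones were named through the platform annotation and NCBI RefSeq's Release 6 gene table (names and gene order only), and clones of a gene were averaged. An intercept-only model was fitted in limma 3.58.1 under R 4.3.3, and each mean was tested two-sided against 0 using moderated variances, with p-values adjusted over 10183 features by the Benjamini-Hochberg method; averaging and the model were chosen here, and the study's methods give the 5% false discovery rate and the 1.5-fold minimum. The script was tested on simulated data. Intervals are limma's, at 95% and without adjustment for the number of genes. Alternatives were single clones, at least 2 arrays, scaled or centred arrays, array weights and a robust variance prior. Each array left out, other thresholds and the opposite sign were run as well. Members, lists and the rule for named genes were chosen with earlier results of these data known. The rule names the members, called list genes (or the 2 with the smallest p), the 3 nearest patterns of called members and direct neighbours; further genes were named by role after their values were seen.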

Additional observations from a re-analysis of the deposited data

How the results depend on the processing

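The 7 tested members stayed above 0 in each setting run for them, the opposite reading of the sign aside. As all their values lay above 0 on each array, these settings could not have given another sign, so this is no test. With arrays scaled to the same spread 0 members, 0 features (0 higher, 0 lower; 2552 with an unadjusted p under 0.05) and 0 dorsal target genes were called, with tld at 1.03, Doc1 at 1.05 and scw at 0.64 (adjusted p = 0.0577, 0.0577 and 0.0702). A test against a 1.5-fold change in limma also gave 0 for each of these counts (118 with an unadjusted p under 0.05). Leaving out 1 array gave 0 to 0 calls for each of them, with means of 0.94 to 1.20 for tld, 0.91 to 1.23 for Doc1 and 0.51 to 0.72 for scw; fewer arrays enter this test. With each clone on its own and with features on at least 2 arrays, scw kept its mean of 0.63 and lost its call (adjusted p = 0.0554 and 0.0547). Array weights gave Dtg a mean of 1.33 and a call. At an adjusted p under 0.10, 5 members and 115 features were called higher. A robust variance prior gave 3 members and 68 features called higher. Without the fold minimum the calls numbered 410, with 322 lower. The opposite sign gives 0 members called higher and 3 lower, among 171 features higher and 66 lower. The BMP pathway list had 0 called genes in each setting, against 2.33% of all features in the main fit. For 16 tested genes, a count of 0 lies near that share and does not set the list apart. In the settings that called no feature at all, the count of the BMP pathway list was fixed in advance. Each ratio is already paired within its experiment, so the test is a paired one and no further block could be fitted. The causes were not tested.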
